A study of Homo sapiens with 12 samples.

Results

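The olfactory receptor genes of chromosome 11 are the protein-coding genes there whose symbol consists of OR, a family number, letters for the subfamily and a member number. The RefSeq gene table of GRCh38 held 171 genes of this form. The coordinates of 3 of them, OR9G9, OR8U8 and OR8U9, belong to another scaffold, which left 168 genes out of 19839 protein-coding genes on chromosomes 1 to 22 and X. The remaining 19671 genes served as background. Membership followed name and position alone and used no histone mark, although the set itself was chosen with earlier results of these data known. For each gene the deposited intervals of every mark were read over a window made of its annotated span and 5 kb on either side.

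The intervals come from chromatin immunoprecipitation with sequencing (ChIP-seq) in KBM-7, a near-haploid leukaemia line of the myeloid lineage. The cells were untreated, grown in medium with fetal calf serum, and fixed with formaldehyde before sonication. Antibodies to H3K4me3, H3K27ac, H3K27me3, H3K4me1, H4K16ac, H3K4me2, H3K9ac, H3K36me3 and H3K79me2 gave 9 libraries, 1 per mark, and a further 3 libraries were inputs. All 12 samples are of this 1 line, so cell types cannot be compared, and no mark has a replicate. Every difference below therefore describes these libraries, carries no test and has no replicate error to be set against. The deposited list gives only which bases were called for a mark, with no read counts, so depth is unknown, and a base without a label was not called rather than shown to lack the mark.

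Facts of the whole list bear on the reading. The intervals under H3K36me3 and under H4K16ac are identical (45695 intervals) and are used as 1 set. A further label, H3K9me3, has no matching sample here, and how it was made is not given. The label None was, base for base on chromosome 11, the complement of all other labels: 0 bp carried None beside another label and 0 bp carried no label at all. Chromosome 11 was 32.2% under H3K27me3, 34.5% under H3K9me3 and 46.3% under None. A list of 10 blood progenitor and leukocyte genes was looked up, among them GATA2, CD34, RUNX1 and PTPRC. All 10 windows had H3K4me3, H3K9ac, H3K27ac, H3K4me2, H3K4me1, H3K79me2 and H3K36me3/H4K16ac, and 0 of 10 had H3K27me3. The H3K9me3 label was nevertheless present in 5 of these 10 windows. In the background genes, the shares for those 7 sets ran from 11.1% (H3K27ac) to 79.2% (H3K4me2). They were 44.4% for H3K27me3 and 68.6% for H3K9me3. The list was chosen with earlier results of these data known, so it is no independent check of the cell line.

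Olfactory receptors are G protein-coupled receptors that bind odorants at the surface of sensory neurons in the nose. They form the largest gene family in the human genome, lie in clusters with many pseudogenes, and each neuron expresses a single receptor allele out of the whole repertoire. In mouse olfactory epithelium the clusters are packed into heterochromatin that carries H3K9me3. H3K27me3 is laid down by Polycomb repressive complex 2, H3K4me3 and H3K9ac mark active gene starts, H3K4me1, H3K4me2 and H3K27ac also mark enhancers, and H3K79me2 and H3K36me3 mark transcribed gene bodies. By family, the receptors divide into class I, related to the receptors of fish, and class II, which makes up most of the mammalian repertoire.

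The 168 genes comprised 55 of class I (families 51, 52 and 56) and 113 of class II, in 11 families. With consecutive genes no more than 1 Mb apart joined, they fell into 7 clusters, numbered here from the short arm to the end of the long arm. Cluster 1 ran from OR52B4 to OR10A3 (chr11:4367263-7941708) and held 67 genes, all 55 of class I among them. Cluster 2 held 7 genes from OR4B1 to OR4A47 (chr11:48216810-48489722), and cluster 3 only OR4C13 and OR4C12 (chr11:49952391-49982535). Cluster 4, on the long arm next to the centromere, held 48 genes from OR4C46 to OR5AK2 (chr11:54603069-56989843). Cluster 5 held 21 genes from OR9Q1 to OR10V1 (chr11:58023881-59713845), cluster 6 only OR2AT4 (chr11:75081753-75096890), and cluster 7 held 22 genes from OR6X1 to OR8A1 (chr11:123753580-124571374). The median span was 1103 bp, within a range of 912 to 165335 bp. Neighbouring windows share sequence: the 168 windows form 122 runs of overlapping windows, and the longest run joins 7 genes, so the genes are not independent of each other.

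The promoters below, 250 bases before and 50 bases from the annotated start (RefSeq, GRCh38.p14, read 5′ to 3′ on the gene's strand), show the sequence context of the findings. Of the 168 genes, 135 had such an entry. Capitals mark CG dinucleotides, the target of DNA methylation and the hallmark of CpG island promoters. OR52N2 (chr11:5808674-5808973, plus strand) has the most CGs of the 135 promoters, 14, and OR4D9 (chr11:59511289-59511588, plus strand) has 1. Of the 135 genes with an entry, these are the ones where H3K4me2 covered the annotated start, over all 300 bases in each. OR4D6 (chr11:59456711-59457010, plus strand, 0 CGs) and OR8B8 (chr11:124445647-124445946, minus strand, 1 CG) were wholly under both H3K27me3 and H3K9me3. OR8H1 (chr11:56292205-56292504, minus strand, 1 CG), a gene of cluster 4, was wholly None.
OR52N2: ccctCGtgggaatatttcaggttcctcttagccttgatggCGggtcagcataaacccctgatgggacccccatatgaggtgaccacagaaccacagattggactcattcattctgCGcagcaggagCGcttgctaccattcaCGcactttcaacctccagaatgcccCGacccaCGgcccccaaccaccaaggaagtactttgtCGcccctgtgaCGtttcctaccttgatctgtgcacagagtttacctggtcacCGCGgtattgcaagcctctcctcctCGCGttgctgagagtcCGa
OR4D9: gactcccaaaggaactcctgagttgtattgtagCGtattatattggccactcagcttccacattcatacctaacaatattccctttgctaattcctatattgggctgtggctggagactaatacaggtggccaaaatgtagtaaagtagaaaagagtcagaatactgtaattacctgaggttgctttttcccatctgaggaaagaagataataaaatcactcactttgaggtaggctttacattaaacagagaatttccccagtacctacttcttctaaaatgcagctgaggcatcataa
OR4D6: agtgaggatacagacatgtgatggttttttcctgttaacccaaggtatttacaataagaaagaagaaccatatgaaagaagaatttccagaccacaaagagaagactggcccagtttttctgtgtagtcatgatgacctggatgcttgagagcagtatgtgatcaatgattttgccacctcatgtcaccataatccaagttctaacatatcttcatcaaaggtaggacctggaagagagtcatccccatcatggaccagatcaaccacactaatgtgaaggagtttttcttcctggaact
OR8B8: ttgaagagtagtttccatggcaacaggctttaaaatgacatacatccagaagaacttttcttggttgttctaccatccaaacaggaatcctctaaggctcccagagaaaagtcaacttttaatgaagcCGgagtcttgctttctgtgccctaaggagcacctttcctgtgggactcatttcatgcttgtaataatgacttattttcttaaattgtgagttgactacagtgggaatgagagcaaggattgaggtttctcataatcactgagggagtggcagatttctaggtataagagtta
OR8H1: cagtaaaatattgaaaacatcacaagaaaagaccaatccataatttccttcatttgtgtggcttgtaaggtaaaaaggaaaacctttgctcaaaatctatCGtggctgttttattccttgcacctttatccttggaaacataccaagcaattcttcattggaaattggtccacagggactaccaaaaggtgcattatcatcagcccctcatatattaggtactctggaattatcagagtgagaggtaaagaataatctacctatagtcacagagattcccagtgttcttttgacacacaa

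Marks of active chromatin were rarely called in the receptor windows. H3K4me3 was present in 1 of 168 windows (0.595%), against 59.3% of the other protein-coding genes, and H3K9ac in 1, against 63.8%. H3K27ac was called in 0 of 168, against 11.1%, and H3K79me2 in 0, against 48.3%. H3K4me2 was present in 7 windows (4.17%), against 79.2%, H3K4me1 in 4 (2.38%), against 57.2%, and H3K36me3/H4K16ac in 1, against 57.0%. At least 1 of these 7 sets occurred in 9 receptor windows (5.36%), against 82.0% of other genes. The receptor shares lay far below the background for each of the 7 sets.

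Receptor windows are short, with a median of 11103 bp against 34853 bp for the other genes, and a longer window has more room for a label. Among the 2997 other genes with spans of at most 5 kb, 37.5% still had H3K4me3. The distance from a receptor gene to the nearest H3K4me3 region had a median of 273 kb and ranged from 4.556 to 2720.15 kb. That median was 190 kb for the 219 receptor genes of 17 other chromosomes and 0 kb for all other genes, most of which had the mark in their own span.

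H3K27me3 and the H3K9me3 label were common over the receptors. H3K27me3 was present in 99 windows (58.9%, Wilson 95% interval 51.4 to 66.1, counting error only), against 44.4% of other genes, and covered a median of 25.7% of a receptor window, against 0%. The H3K9me3 label was present in 105 windows (62.5%, 54.98 to 69.5), against 68.6%, and covered a median of 19.1%, against 11.8%. The presence of H3K9me3 at the receptors was thus below that of all other genes, but this turned with the genes compared: it was 61.3% in the other genes of chromosome 11, and among genes of at most 5 kb it was 56.8% at receptors, against 52.1%. H3K27me3 was more frequent at receptors among these short genes too (49.5%, against 38.5%), but its median cover was 0% in both, so the difference in median cover was not found at that length. Both labels lay on the same bases in 79 windows (47.0%), against 38.8% of other genes. Neither label was present in 47 receptor windows and in 5502 other windows, which is 28.0% of each.

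None occurred in 136 receptor windows (81.0%), against 89.2% of other genes, but among genes of at most 5 kb the order turned, with 80.2% of receptors against 77.3% of others. None reached across whole windows more often at the receptors. A window wholly None was found for 47 receptors (28.0%), against 3.11% of other genes. Among genes of at most 5 kb, the share was 34.2% of 111 receptors against 9.38% of 2997 others, so the receptors stood above the others there too. Without the H3K9me3 label, which no sample here accounts for, 68 receptor windows (40.5%) held no interval of the 8 sets named after the libraries, against 4.99%. These 47 receptors are the same in number as those with neither H3K27me3 nor H3K9me3: every receptor window that lacked both labels was None throughout, whereas 5502 other genes lacked both and 611 were wholly None.

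**Figure D1:**
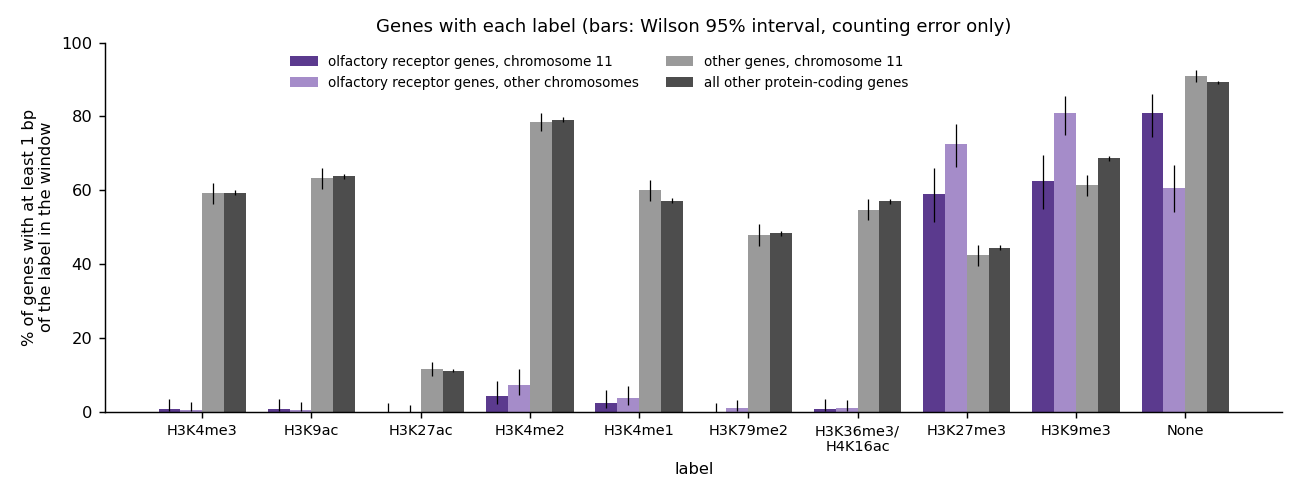
Percent of genes (vertical axis, 0 to 100) with at least 1 bp of each label (horizontal axis) in the gene span and 5 kb on either side, for the 168 receptor genes of chromosome 11, the 219 receptor genes of other chromosomes, the 1129 other genes of chromosome 11 and all 19671 other protein-coding genes; lines on the columns are Wilson 95% intervals of counting error. Receptor columns are at or near 0 for the labels of active chromatin (H3K4me3 in 0.595% of the chromosome 11 receptors, against 59.3% of other genes), while H3K27me3 stands at 58.9%, against 44.4%.

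The plot of gene shares by label also places the chromosome 11 receptors beside the 219 receptor genes elsewhere. Those other receptors had H3K27me3 in 72.6% and H3K9me3 in 80.8% of windows, with median covers of 72.4% and 65.2%, so the chromosome 11 set was lower for both labels. Wholly None windows were 47 of 168 on chromosome 11 (28.0%), against 27 of 219 elsewhere (12.3%). Active marks were rare in both: H3K4me3 in 1 of 168 against 1 of 219, and H3K4me2 in 7 of 168 (4.17%) against 16 of 219 (7.31%). Any of the 7 sets occurred in 5.36% of the chromosome 11 receptors, against 9.13% of those elsewhere. Windows of the receptors elsewhere were longer, with a median of 15165 bp, against 11103 bp. The part of window length in these differences was not tested. The other 1129 protein-coding genes of chromosome 11 had H3K4me3 in 59.3% and wholly None windows in 2.92%.

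Within the chromosome, the labels differed between clusters. In cluster 4, H3K27me3 was present in 6 of 48 windows and H3K9me3 in 13, and 31 windows were wholly None. Outside cluster 4, H3K27me3 was present in 93 of 120 windows and H3K9me3 in 92, and 16 were wholly None. The median window was 100% None in cluster 4, against 12.2% in the other clusters. Without cluster 4 the share of wholly None windows was 13.3%, close to the 12.3% of receptors on other chromosomes, and the median covers of 67.0% for H3K27me3 and 52.6% for H3K9me3 neared the 72.4% and 65.2% found there. This split was made after the values were seen and has no test. Cluster 4 was set apart for its None cover, so a lower None share without it was fixed in advance. No cluster was left out of the receptors of other chromosomes, so the nearness of the values carries no conclusion.

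**Figure D2:**
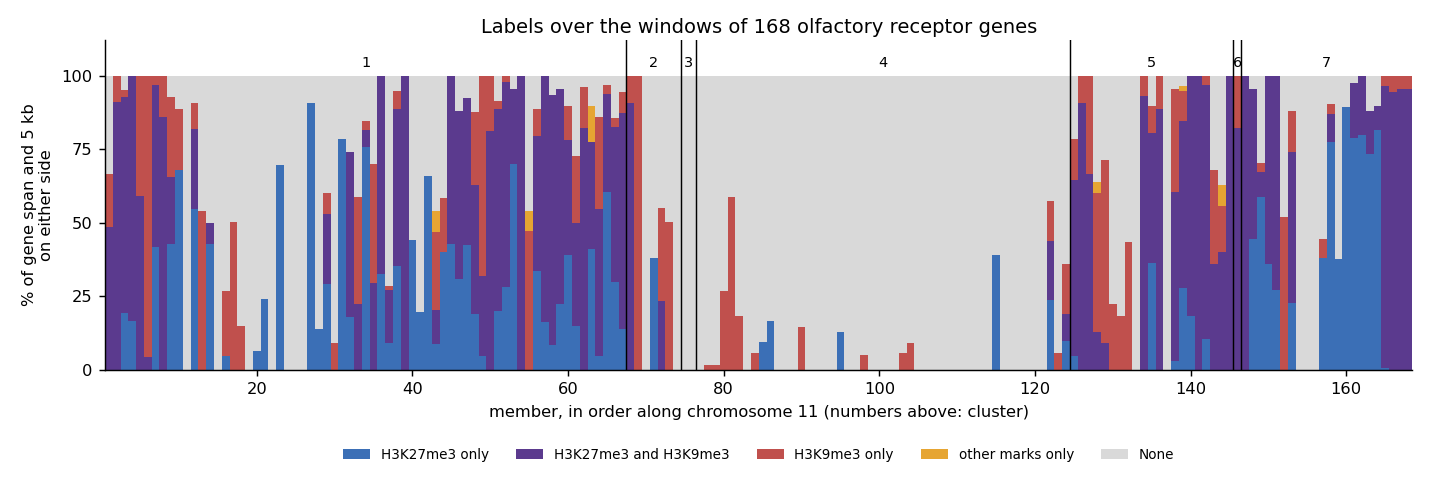
Percent of each receptor window (vertical axis) under H3K27me3 only, under both H3K27me3 and H3K9me3, under H3K9me3 only, under other marks only and under None, stacked to 100%, for the 168 genes in order along chromosome 11 (horizontal axis), with cluster numbers above. Cluster 4 appears as a long block of windows at or near 100% None, broken at OR4C15 and OR9G1, while clusters 1, 5 and 7 are mostly filled by H3K27me3 and H3K9me3 with short None stretches.

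Along cluster 4, 40 consecutive receptors from OR4C16 to OR5AR1, over 1092.49 kb, were each at least 50% None. The 2 genes of the cluster below that level were OR4C15, with H3K9me3 on 58.6% of its window and no H3K27me3, and OR9G1, with H3K27me3 on 43.9% and H3K9me3 on 33.8%. OR4C46, its first gene, was wholly None and lay 2720.15 kb from the nearest H3K4me3 region, the farthest of all 168. OR5AK2, its last, was 64.0% None with 19.1% H3K27me3 and 26.0% H3K9me3. No base of the whole 2386.78 kb cluster was called for H3K4me3, H3K9ac, H3K27ac, H3K4me2, H3K4me1, H3K79me2 or H3K36me3/H4K16ac. The only other protein-coding genes inside it, TRIM48 and TRIM51 of the tripartite motif family, were wholly None as well. Of its 59 receptor pseudogenes, 51 were wholly None, so the state was shared by coding and non-coding copies. The longest None region that touched a receptor window anywhere was 135.5 kb (chr11:56562001-56697500, OR5M10 to OR9G1) and lay in this cluster. Whether reads that match several near-identical receptor genes were kept is not given, and its part in the None calls was not tested.

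Families of cluster 4 differed in how many of their genes were wholly None. In family 8 it was 10 of 11 and in family 5 it was 18 of 24, but in family 4 only 2 of 10 and in family 9 it was 0 of 2. Family 4 had H3K9me3 in 6 of its 10 genes there, at a median cover of 1.61%, and its median window was still 92.4% None. All 8 genes of OR8H, OR8J and OR8K lacked H3K27me3, 1 had H3K9me3, and 7 were wholly None. Of the 7 OR5D and OR5L genes, 6 were wholly None, and of the 6 OR5M genes, 5. OR5AS1 had the most None sequence of the cluster in a single window, 19538 bp of 20538 bp, with H3K9me3 on the remaining 1000 bp.

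Cluster 1, which holds the class I receptors together with TRIM genes and the beta-globin locus, was mostly covered. H3K27me3 was present in 55 of 67 windows, with a median cover of 66.0%, and H3K9me3 in 51, with a median of 50.2%. Its 7 wholly None windows (OR51F1, OR51T1, OR51A4, OR52J3, OR52A5, OR52A1 and OR51V1) all belonged to class I. From OR52N1 to OR10A3, 26 consecutive receptors over 2155.24 kb were each under 50% None. That length includes long stretches without receptors, from OR52W1 to OR2AG2 and from OR2D3 to OR5P2, and is not 1 continuous covered stretch. Windows of other genes there varied, such as CCKBR at 0% None and SMPD1 at 84.5%. The 12 class II genes of the cluster all carried both labels, with medians of 82.5% H3K27me3 and 65.5% H3K9me3. In its 55 class I genes, H3K27me3 was present in 43 and H3K9me3 in 39, with medians of 52.8% and 37.9%. Class and position move together here, since all 12 class II genes lie toward the upper end of the cluster, so the 2 cannot be told apart.

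Among the class I families, all 7 genes of family 56 had H3K27me3 and 6 had H3K9me3. Family 52 had H3K27me3 in 21 of 25 genes and H3K9me3 in 19, and family 51 in 15 and 14 of 23. OR51E1, a receptor for short-chain fatty acids, and OR51E2, known as prostate-specific G protein-coupled receptor, showed how neighbours can differ. OR51E1 had H3K27me3 on 86.1% and H3K9me3 on 99.9% of its window, and OR51E2 had 65.7% and 49.96%. OR52B4, the first gene of the cluster, had H3K27me3 on 48.4% and H3K9me3 on 66.4%, and OR10A3, the last, 87.4% and 80.5%. OR6A2, a class II receptor for aldehydes, was under H3K27me3 over 93.4% and under H3K9me3 over 85.0% of its window.

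The 7 wholly None windows of cluster 1 lay in its lower part, between OR51F1 and OR51V1. From OR52A5 to OR51V1 all 3 receptors were wholly None, and the neighbouring globin genes, the red cell genes that encode the beta-type chains of haemoglobin, continued that stretch. HBB, HBD and HBG2 were wholly None, HBG1 had 4000 bp of H3K27me3, HBE1 had 2500 bp, and none of these 5 genes had an active label. On the other side of the globin genes, OR51B4 had H3K27me3 on 90.9% of its window and no H3K9me3. OR51B5, whose annotated span of 165335 bp is the longest of all, had 92652 bp of H3K27me3, 54652 bp of H3K9me3 and 69683 bp of None.

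Most receptors of clusters 5 and 7 had both labels, in different proportions. In cluster 5, H3K27me3 was present in 16 of 21 windows and H3K9me3 in 19, with medians of 64.5% and 71.3%. In cluster 7, H3K27me3 was present in 18 of 22 and H3K9me3 in 17, with medians of 89.5% and 19.5%. H3K27me3 thus filled most of the typical window of cluster 7, where H3K9me3 reached a smaller part. OR8D1 of cluster 7 is an example: H3K27me3 lay on 97.6% of its window and H3K9me3 on 18.9%.

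The longest H3K27me3 region at a receptor spanned 51.5 kb in cluster 5 (chr11:59430501-59482000) and touched 4 windows, OR5A2 to OR4D10. OR5A1, the receptor for beta-ionone, a violet odorant, lay in it with H3K27me3 on 100% and H3K9me3 on 81.8% of its window. OR9Q1 at the start of cluster 5 had the most covered sequence of all receptors, with 108120 bp of H3K27me3 and 123616 bp of H3K9me3 in a window of 167736 bp. OR10V1 at its end was wholly under both labels. In cluster 7, the longest H3K9me3 region, 94.0 kb (chr11:123712001-123806000), touched OR6X1 and OR6M1. OR8A1, the last gene, had H3K27me3 on 95.6% and H3K9me3 on 100% of its window.

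A block of cluster 7 went the other way. OR10G4, a receptor for guaiacol and vanillin, OR10G9 and OR10G8 were wholly None, although the cluster had no other wholly None window. OR10G7 beside them had H3K27me3 on 38.0% and H3K9me3 on 6.53%, while OR10G6 on the other side had 74.2% and 65.1%. OR2AT4, which responds to a synthetic sandalwood odorant and forms cluster 6 alone, had H3K27me3 on 82.1% and H3K9me3 on 100% of its window, inside an H3K9me3 region of 82 kb (chr11:75039001-75121000). In the small cluster 2, OR4B1 had H3K27me3 on 90.9% and H3K9me3 on 100%, and OR4A47 was wholly None, as were both genes of cluster 3.

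Receptors of 1 family differed between the clusters they lie in. Family 8 had 11 genes in cluster 4 and 11 in cluster 7. In cluster 4, 0 of 11 had H3K27me3, 1 had H3K9me3 and 10 were wholly None. In cluster 7, 11 of 11 had H3K27me3, 9 had H3K9me3 and 0 were wholly None, with a median H3K27me3 cover of 94.5%. The subfamilies differed too: OR8H, OR8I, OR8J, OR8K and OR8U in cluster 4, and OR8A, OR8B, OR8D and OR8G in cluster 7. Cluster and subfamily therefore cannot be told apart here. OR8H1 and OR8B8, whose promoters are shown above, are examples of each: OR8H1 was None over all 13793 bp of its window, and OR8B8 had 17252 bp of H3K27me3 and 18252 bp of H3K9me3 in a window of 18252 bp.

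Family 5 was split likewise. In cluster 1, both genes had both labels. In cluster 4, 3 of 24 had H3K27me3, 4 had H3K9me3 and 18 were wholly None. In cluster 5, 6 of 8 had H3K27me3, 6 had H3K9me3 and 2 were wholly None, with a median H3K27me3 cover of 82.6%. These clusters shared no subfamily of family 5, so cluster and subfamily cannot be told apart there either. Family 4 was split less by this measure: of its 10 genes in cluster 4, 2 had H3K27me3, 6 had H3K9me3 and only 2 were wholly None, and the 4 OR4D genes of cluster 5 all had both labels, with 0 wholly None. In cluster 2, 2 of 7 genes of family 4 were wholly None, and in cluster 3, 2 of 2. Its only gene in cluster 7, OR4D5, had both labels. Genes of a cluster share long regions, so these counts describe a few stretches of chromatin rather than many separate genes.

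The cover of H3K27me3 and H3K9me3 went together from gene to gene, with a Spearman coefficient of 0.691 over the 168 windows, given without a test because neighbouring windows share regions. Of the H3K27me3 sequence in receptor windows, 62.7% was also under H3K9me3, against 70.2% for other genes. Of the H3K9me3 sequence, 74.3% was also under H3K27me3, against 59.5%. Among genes of at most 5 kb, 70.6% of the H3K27me3 sequence at receptors was also under H3K9me3, against 72.4% at others. Of the H3K9me3 sequence at that length, 68.0% was also under H3K27me3, against 66.5%. Both differences were thus smaller among these short genes. Long windows weigh most in such shares of sequence: OR9Q1 alone had 100000 bp under both labels. At least 50% of the window was under H3K27me3 for 69 receptors and under H3K9me3 for 66. Both covered the whole window at 5 genes, OR56B1, OR52B2, OR4D6, OR10V1 and OR6X1. H3K27me3 without H3K9me3 was found at 16 receptors (9.52%), against 3.41% of other genes, and H3K9me3 without H3K27me3 at 22 (13.1%), against 27.7%.

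**Figure D3:**
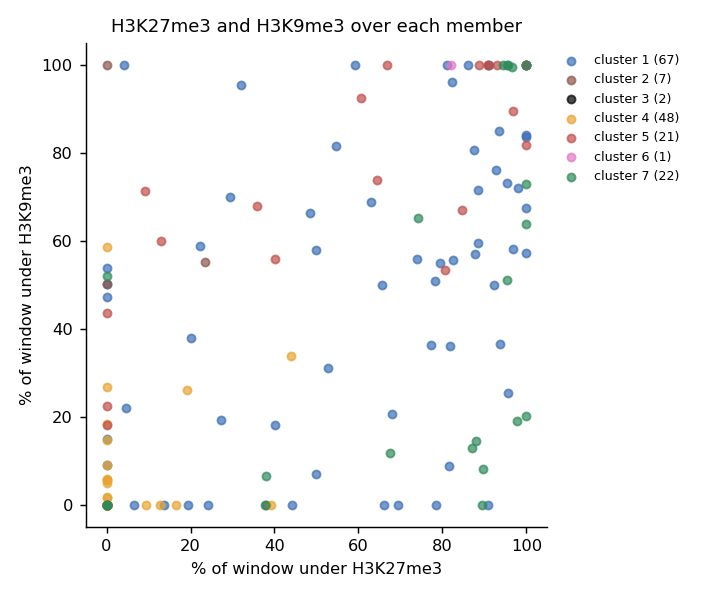
Percent of the window under H3K27me3 (horizontal axis) and under H3K9me3 (vertical axis) for each of the 168 receptor genes, coloured by cluster. Points of cluster 4 lie mostly at or near 0% H3K27me3, many of them at the origin, those of cluster 7 mostly at high H3K27me3 with H3K9me3 anywhere between 0 and 100%, and the coefficient over all points is 0.691.

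Only 9 receptors had any label of active chromatin, and most of the regions were small and away from the receptor's own start. OR2D3 was the only gene with H3K4me3 (444 bp) and H3K9ac (594 bp) in its window, beside 1344 bp of H3K4me2. These regions began 3656 to 4556 bp above its span and overlapped the annotated ZNF215, a zinc finger gene, and the non-coding LOC107984019. OR52I1 was the only gene with H3K36me3/H4K16ac, 1013 bp that began 3987 bp above its span and overlapped TRIM68. Both cases thus came from the flank and lay on other annotated genes.

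The other 7 genes had H3K4me2, H3K4me1 or both. OR52N2 had H3K4me2 at chr11:5808451-5809800, across its annotated start at 5808924, and a further 300 bp inside its span. OR4D9 had H3K4me2 at chr11:59510401-59511600, across its annotated start at 59511539, with 750 bp of H3K4me1 that ended 539 bp before the start. Neither region overlapped H3K27me3 or H3K9me3, and neither start had H3K4me3.

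In OR5AN1, a receptor for musk odorants, H3K4me2 and H3K4me1 lay on the same 600 bp, 9456 bp from the start and under H3K9me3. OR5A2 had 1200 bp of H3K4me2 and 750 bp of H3K4me1 beyond the far end of its span, 12013 and 12463 bp from its start, partly under H3K27me3. OR9Q2 had 600 bp of H3K4me2 inside its span, OR51D1, for which no start was available, had 600 bp of H3K4me2 across the lower end of its span and within H3K27me3, and OR52W1 had 750 bp of H3K4me1 that began 664 bp above its span. Of these 7 genes, OR9Q2, OR5AN1, OR5A2 and OR4D9 belong to cluster 5 and the others to cluster 1.

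At the annotated starts themselves, 0 of 135 receptors had H3K4me3, against 36.5% of 15677 other genes. The start lay in None for 63 receptors (46.7%), against 14.3% of other genes, in H3K27me3 for 53 (39.3%), against 22.9%, and in H3K9me3 for 54 (40.0%), against 22.9%. For 177 receptors of other chromosomes the shares were 25.4% in None, 57.1% in H3K27me3 and 60.5% in H3K9me3. The chromosome 11 starts were thus lower than those for both H3K27me3 and H3K9me3. In cluster 4 the start was in None for 41 of 44 genes. Over 20 kb on either side of the start, in bins of 1 kb, None covered between 87.7% and 96.4% of bases in cluster 4. H3K27me3 covered between 42.1% and 68.1% in cluster 1, between 45.5% and 74.3% in cluster 5 and between 61.8% and 86.5% in cluster 7. Some labels differed between the sides of the start. In cluster 1, H3K27me3 covered 67.1% of bases in the bin centred 2.5 kb before the start and 44.8% in that 4.5 kb after it. H3K9me3 went the other way: in cluster 7 it covered 18.8% in the bin 2.5 kb before the start and 45.8% in that 2.5 kb after it, and in cluster 5 it covered 45.8% in the bin 5.5 kb before and 82.4% in that 1.5 kb after. These bins were picked after the profiles were seen, and with 49, 16 and 19 starts that share regions the contrasts have no test. In other genes H3K4me3 covered 41.8% of the first 1 kb after the start and 1.15% at the far end, while in clusters 4, 5 and 7 it was at 0% throughout.

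**Figure D4:**
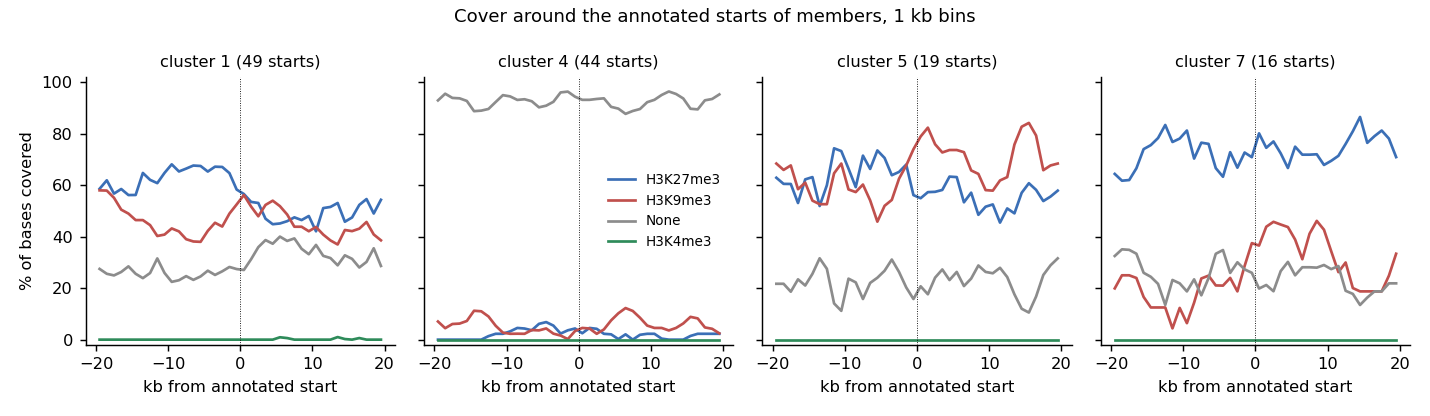
Percent of bases under H3K27me3, H3K9me3, None and H3K4me3 (vertical axis) in bins of 1 kb up to 20 kb on either side of the annotated starts (horizontal axis, in the direction of the gene), for the receptors of clusters 1 (49 starts), 4 (44), 5 (19) and 7 (16). In cluster 4 the None line stays between 87.7% and 96.4%, H3K9me3 in clusters 5 and 7 is higher just after the start than a few kb before it, and H3K4me3 is at 0% next to the start in all 4 panels.

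The receptor promoters share a sequence composition that the choice by name did not use. The 135 promoters had a median of 1 CG dinucleotide in 300 bases (range 0 to 14) and 36 had none (26.7%), against a median of 22 and 1.68% without CG in 15677 other genes. Receptor promoters of other chromosomes (177) also had a median of 1. All but OR52N2 had fewer than 7 CGs. The median C plus G content was 37.0%, against 38.3% in receptor promoters of other chromosomes and 62.7% in other genes. The clusters differed in it: 40.0% in cluster 1, 33.2% in cluster 4, 40.7% in cluster 5 and 39.7% in cluster 7.

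**Figure D5:**
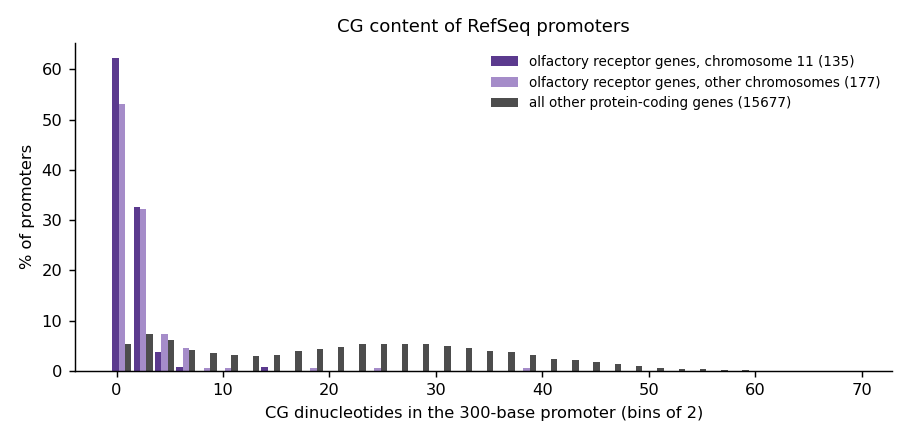
Number of CG dinucleotides in the 300-base promoter (horizontal axis, bins of 2) and percent of promoters in each bin (vertical axis), for 135 receptors of chromosome 11, 177 receptors of other chromosomes and 15677 other genes. Of the chromosome 11 receptors, 62.2% are in the lowest bin (0 or 1 CG) and OR52N2, with 14, stands alone to the right.

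Across the 135 genes, C plus G content of the promoter and cover of the window had Spearman coefficients of 0.469 for H3K27me3, 0.417 for H3K9me3 and -0.486 for None, again without a test. Cluster 4 had both the lowest C plus G content and the most None of the 4 clusters with more than 10 promoters, and the part of base composition in the calls was not tested. The letters TAATTA, a homeodomain core that reads the same on both strands, occurred in 33 receptor promoters (24.4%), against 3.18% of the others. TATAAA, searched on both strands, occurred in 48 (35.6%), against 9.53%, and CCCNNGGG, a core of the motif bound by EBF proteins that also reads the same on both strands, in 11 (8.15%), against 21.6%. None of the 3 contains another, though a match of TAATTA and a match of TATAAA can overlap at their ends. In the 177 receptor promoters of other chromosomes the shares were near those of chromosome 11. They were 21.5% for TAATTA, 34.5% for TATAAA and 7.91% for CCCNNGGG. The receptor promoters are richer in A and T than the others, and the part of that in these shares was not tested.

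Genes that serve olfaction outside the receptor family were treated as a list of 23, including transduction components and, from work in mouse, regulators of receptor choice. H3K27me3 was present in 17 (73.9%, against 44.4% of the genes used as background) and H3K9me3 in 21 (91.3%, against 68.6%). H3K4me2 was present in 16 (69.6%, against 79.2%), H3K4me3 in 10 (43.5%, against 59.3%), H3K4me1 in 12 (52.2%, against 57.2%) and H3K27ac in 1 (4.35%, against 11.1%). The list is small, and its windows ran from 10492 bp (OMP) to 413997 bp (EBF1), which bears on the presence of a label. No difference from the background is drawn from these shares. EMX2 and LHX2, homeodomain factors, and RTP1, which brings receptors to the cell surface, were wholly under H3K27me3 and H3K9me3. LHX2 also had 4950 bp of H3K4me2. GNAL, the G protein subunit that couples to the receptors, had H3K27me3 on 71.1% of its window and 1950 bp of H3K4me3, and CNGA2, a subunit of the olfactory channel, had H3K27me3 on 95.2% and no H3K4me3. ADCY3, the adenylyl cyclase of the pathway, had 1050 bp of H3K4me3 and no H3K27me3. LDB1 and KDM1A, cofactors that many cell types express, had 3750 and 3000 bp of H3K4me3 and no H3K27me3. OMP, the olfactory marker protein, was wholly None over 10492 bp.

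CNGA4, another subunit of the olfactory channel, lies inside cluster 1. Its window held 750 bp each of H3K4me3 and H3K9ac (chr11:6234001-6234750), all outside its span, and 636 bp of these lay in the span of the adjacent FHIP1B. Within the CNGA4 span were 2 regions of H3K4me2, 750 bp each. H3K27me3 covered 7976 bp and H3K9me3 10976 bp of the 20184 bp window. In cluster 1, H3K4me3 was present at 1 of 67 receptors, against 22 of the 43 other protein-coding genes inside it, and H3K4me2 at 3 receptors, against 25. In cluster 5, H3K4me3 was present at 0 of 21 receptors, against 7 of 14 other genes. Active labels were thus called within the bounds of these clusters, mostly in windows of genes that are not receptors. Many of those genes lie in stretches without receptors that the 1 Mb gap joined. Examples are ILK, between OR52W1 and OR2AG2, and LPXN, between OR5B21 and OR5AN1. Others, such as TRIM21 and TRIM68, lie among receptors. Windows of the other genes inside clusters were also longer, with a median of 22184 bp, against 11103 bp for receptors.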

How the data were processed

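ChIP-seq libraries of 9 histone marks and 3 inputs from KBM-7 cells, 1 library per mark, underlie the data. What the authors deposited is a list of intervals in bp under mark names, without counts or scores. Per the submitters' processing notes, the tools were Bowtie2, MACS and cutadapt and the build was GRCh38. Their roles, versions and thresholds, and the treatment of reads with several matches, are not given. Depth is unknown, and precision cannot be judged from reads. Intervals of a label were joined where they overlapped or touched. The 45695 intervals of H3K36me3 and H4K16ac are identical and formed 1 set, which gave 10 labels with H3K9me3 (no matching sample) and None.

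Gene spans, starts and promoters came from RefSeq tables (GRCh38.p14). Another 135 protein-coding genes listed on other scaffolds were left out. A gene had a label when at least 1 bp lay in its span or 5 kb on either side. Wilson 95% intervals cover counting error only. No test was run, since no mark has a replicate. The receptor genes, lists and comparisons were chosen with earlier results of these data known. Genes were named by rule (up to 4 with the most covered bp per label, all where 10 or fewer had it, and the ends of each cluster); others, such as receptors with known ligands, neighbours and subfamilies, were chosen after their values were seen. Planned protein motifs were not run, as no protein sequences were used here. The overlap functions were tested on simulated data (2500 windows, 0 mismatches). Python 3.11.15, NumPy 2.4.6, pandas 2.3.3, SciPy 1.17.1 and matplotlib 3.10.9 were used. Alternatives were the gene span alone, a 500 bp overlap, wider regions, runs of windows, other backgrounds and a 500 kb cluster gap.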

Additional observations from a re-analysis of the deposited data

How the results depend on the processing

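With the gene span alone in place of the window, receptors with H3K4me3, H3K9ac and H3K36me3/H4K16ac numbered 0 and those with H3K4me1 numbered 1, and median covers were 0% for H3K27me3, 4.74% for H3K9me3 and 26.5% for None. A minimum overlap of 500 bp left 0 receptors with H3K4me3. Keeping only regions as wide as the median of their label or wider left 0 receptors with H3K4me3, 0 with H3K9ac and 4 with H3K4me2. A gap of 500 kb gave 11 clusters. Further settings were added after the data were seen. Leaving out H3K9me3 gave a median of 72.6% of a receptor window free of the 8 sets named after the libraries. A background of genes of at most 5 kb had 37.5% with H3K4me3, 37.7% with H3K4me1, 29.8% with H3K79me2 and 31.8% with H3K36me3/H4K16ac. All 10 label shares stayed within 1.5 times when overlapping windows were joined and the share was taken over runs in place of genes. The same held for the 10 label counts when the 3 genes of the other scaffold were added. It also held for the 10 background shares for chromosome 11 alone. No paired analysis was possible because each mark has 1 library, which also leaves no replicate to leave out. Without counts or scores, a stricter calling threshold could not be applied, and an uncalled base cannot be told apart from one read too shallowly.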

Other observations

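Chromosome 11 also holds 195 receptor pseudogenes, copies that no longer encode a receptor, of which 147 lie inside the 7 clusters and 48 outside them. H3K27me3 was present in 99 of 168 intact genes (58.9%), against 98 of 195 pseudogenes (50.3%), and H3K9me3 in 105 (62.5%), against 93 (47.7%). The median cover in intact genes was 25.7% for H3K27me3, 19.1% for H3K9me3 and 45.4% for None, against 7.14%, 0% and 64.2% in pseudogenes. Wholly None windows were 47 of 168 (28.0%), against 79 of 195 (40.5%), of which 60 lay inside the clusters. H3K4me3 was found in 1 of 168, against 0 of 195. Over the whole chromosome the pseudogenes thus had less of both labels. In cluster 1, H3K27me3 was present in 55 of 67 intact genes, against 41 of 47 pseudogenes. Cluster 4 had it in 6 of 48 intact genes, against 2 of 59 pseudogenes. The counts were 16 of 21 against 11 of 15 in cluster 5 and 18 of 22 against 19 of 20 in cluster 7, so cluster 4 was low for both kinds of gene. The H3K27me3 share was thus higher in pseudogenes in clusters 1 and 7 and lower in clusters 4 and 5. H3K9me3 was present in 51 of 67 intact genes against 30 of 47 pseudogenes in cluster 1 and 13 of 48 against 6 of 59 in cluster 4. It was 19 of 21 against 13 of 15 in cluster 5 and 17 of 22 against 14 of 20 in cluster 7, lower in pseudogenes in each.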
